A study of Mus musculus with 9 samples.

Results

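The comparison described here sets mouse embryonic fibroblasts that carried the hairpin shRela-1, directed against Rela, beside the same kind of cells with the scrambled hairpin shScr. Its members are the 3 samples labelled shRela-1 and the 3 labelled shScr, 6 of the 9 samples in all. The other 3 samples carry shRela-2, a separate hairpin against the same gene, and are used only where the hairpins are compared. All 9 hold fibroblasts of C57BL/6 embryos, made senescent with gamma rays. The lentivirus with the hairpin was given 10 days after irradiation, to controls as well, and no unirradiated or uninfected sample was analysed here. Each level below, apart from those of cell type markers, is in CPM, counts scaled to a common library size after edgeR's TMM method. The 3 values of a group follow the order of replicates 1 to 3.

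Rela encodes p65, the subunit of NF-kB that carries a strong activation domain. In resting cells NF-kB dimers are held in the cytoplasm by inhibitors of the IkB family. Signals from toll-like, interleukin-1 and TNF receptors pass through TRAF adaptors and the kinase TAK1 to the IKK complex, which marks IkB for destruction, and the freed dimers switch on genes of inflammation and survival, among them those of their own inhibitors. In senescent fibroblasts NF-kB is known for driving much of the senescence-associated secretory phenotype (SASP), a mix of cytokines, chemokines, growth factors and proteases. A short hairpin is cut by Dicer into a small RNA that guides Argonaute proteins to a matching transcript. Such guides can also lower other transcripts that pair with a few bases near the guide's start, mostly in their 3' untranslated regions (3' UTRs).

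Rela itself stood at 85.5, 83.2 and 86.8 CPM in shScr and at 14.1, 13.6 and 13.2 CPM with shRela-1, which is 16.6, 16.0 and 15.5% of the shScr mean. The 3 shRela-1 samples lay far below all controls, so the target fell in each library that carries its label (log2 fold change -2.64 ± 0.050, SE, here and below; adjusted p = 8.73e-10, quasi-likelihood test of edgeR, adjusted by Benjamini-Hochberg over 15369 genes). Over all genes tested, 3799 changed (24.7%), of which 1887 rose (12.3%) and 1912 fell (12.4%). Changes past 2-fold were found in 57 genes that rose and 114 that fell. With the replicate number as a block, 6034 changed, 3130 up (20.4%) and 2904 down (18.9%), with 77 and 151 past 2-fold. "Rose" and "fell" below mean an adjusted p under 0.05 in the fit without the block. The replicate numbers pair the samples, as given with the processing, and this fit leaves that pairing out. Genes said not to pass may therefore pass with the block. Calls lost when single samples are left out also come from fits without the block. The 3 shRela-1 samples lay beyond all 3 shScr samples in 1868 of the 1887 genes that rose and 1898 of the 1912 that fell. Statements below that the groups of a called gene did not overlap therefore add little to the call. Total counts ran from 49774667 to 67963506 among the 6 samples. The titles of the shScr samples carry the tag of a dataset that the shRela titles lack, and any library batch that goes with it cannot be told apart from the group. In these bulk samples fewer cells of a type and less RNA per cell cannot be told apart.

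The sequences printed next carry a short run of bases shared by transcripts that fell with shRela-1. Among all 16384 runs of 7 letters, AGGTGTA was the one whose presence in the 3' UTR went with the lowest log2 fold changes (mean difference over its standard error, after adjustment for UTR length), and GGTGTAA, shifted by 1 base, ranked next. The first line is from the coding sequence of Rela, the intended target, which holds AGGTGTA once, in exon 8 of 11. Its coordinates are those of the capitals, since the window spans an exon junction. The next 6 lines are from 3' UTRs of genes that fell, and the last is from Kcnj6, the largest rise among genes that average 1 or more in log2 CPM. Each is 30 bases of the GENCODE M21 transcript, 5′ to 3′, with AGGTGTA in capitals. Coordinates are GRCm38.
Rela, chr19:5641473-5641479, plus strand: aagaagacattgAGGTGTAtttcacgggac
Lipa, chr19:34493824-34493853, minus strand: tgatgacgtcgaAGGTGTAcattgctctct
Rtn4, chr11:29742478-29742507, plus strand: atggtatgttctAGGTGTAttgtgatttac
C1d, chr11:17267003-17267032, plus strand: tctgtagactggAGGTGTAaggacatttgt
Sfrp1, chr8:23448841-23448870, plus strand: cttttcaacaaaAGGTGTAacaaaccaatg
Ikbkb, chr8:22659587-22659616, minus strand: tcctgggctcaaAGGTGTAtttccatagta
Irf1, chr11:53776677-53776706, plus strand: ttggggggtctgAGGTGTAaggcagaggcc
Kcnj6, chr16:94762119-94762148, minus strand: cacaaaccttcaAGGTGTAaaatacctacc

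Apart from the 7 letters the windows were taken for, C1d, Sfrp1, Irf1 and Kcnj6 have an A right after the capitals, which gives the 8-letter run AGGTGTAA. Of 14008 tested genes with a 3' UTR of at least 50 bases, 245 hold the 8 letters, 771 hold AGGTGTA without them, 469 hold GGTGTAA alone and 1207 hold only the 6 letters that both share, GGTGTA. Genes with the 8 letters had a median log2 fold change of -0.343, and 51.4% of them fell while 6.12% rose. The median was -0.134 with AGGTGTA (34.5% fell), -0.163 with GGTGTAA (36.9% fell) and -0.070 with the 6 letters only (21.9% fell). In the 11316 genes with none of these the median was 0.025, and 8.93% fell while 14.2% rose, beside 12.4% and 12.3% over all genes tested. These values describe how the letters were found and are given with no test. List members took part in finding the letters, so the splits of lists by GGTGTA below are descriptions too. They are to be read beside the shares that fell by class over all genes, 21.9 to 51.4% with GGTGTA and 8.93% without.

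The shift with AGGTGTA was present in each numbered pair of samples, with medians of -0.160, -0.181 and -0.145 against 0.020, 0.009 and 0.011 in genes without it. It was also present in each of 4 bins of 3' UTR length, from -0.256 against 0.002 in the shortest to -0.136 against 0.017 in the longest. Genes with 1 match had a median of -0.162, and the 81 genes with 2 or more had -0.300. The letters were chosen by the fold changes of these same samples and genes. The shifts by pair, by length and by number of matches are therefore descriptions and no independent check. Outside the 3' UTR the shift was smaller. A match in the coding sequence alone went with a median of -0.078 against 0.018 (872 genes), and one in the 5' UTR with -0.077 against 0.013 (79 genes).

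With shRela-2 the same classes had medians near 0. In the same order of classes they were -0.005, 0.027, 0.032 and 0.004 in shRela-2 against shScr. With that hairpin a different run of 7 letters ranked first, GAAGCTA, with a mean difference of -0.234 in the 1133 genes that hold it, beside -0.226 in the 1016 genes with AGGTGTA under shRela-1. Between the hairpins GAAGCTA went with a mean difference of -0.238 and AGGTGTA with 0.226. The direct comparison of the hairpins uses no control sample but reuses the shRela-1 samples in which the letters were found, so it is no independent check. In it, 50.2% of the genes with the 8 letters were higher in shRela-2 than in shRela-1 and 10.6% were lower. Of genes with none of the letters, 17.2% were higher and 22.2% lower, and over all genes tested 6134 differed between the hairpins (39.9%), 3071 higher in shRela-2 and 3063 lower (19.9%). The sequence of neither hairpin is given in the sources used here, and whether a guide RNA from shRela-1 pairs with these letters was not tested. The plot of cumulative shares by longest match shows the classes in order of length with shRela-1 and on top of each other with shRela-2.

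**Figure D1:**
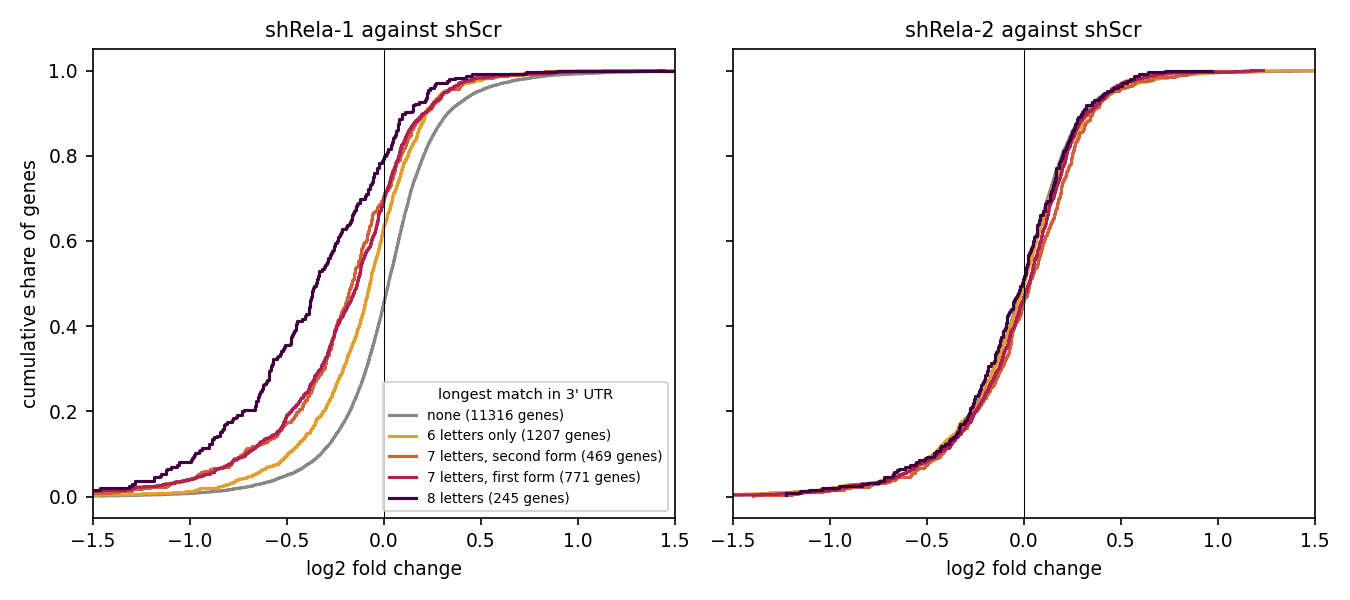
Cumulative share of genes (vertical axis) by log2 fold change (horizontal axis) for shRela-1 against shScr (left) and shRela-2 against shScr (right), with 1 line for each class of longest match in the 3' UTR. On the left the lines move to lower values from no match (median 0.025) to 8 letters (median -0.343), and on the right they overlie each other.

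The genes that fell most were of many kinds, with lysosomal, membrane, Golgi and secreted proteins among them. By the rule for naming genes, the 12 largest falls and rises had to average 1 or more in log2 CPM and to show no overlap between the 3 shRela-1 and the 3 shScr samples, so that separation is no finding of its own. After Rela came Lipa, lysosomal acid lipase, which frees cholesterol from its esters. It stood at 104, 120.1 and 117 CPM in shScr and 21.9, 26.9 and 27.5 CPM with shRela-1, down to 0.224 of the control level (-2.16 ± 0.087, adjusted p = 1.11e-07, edgeR). Adam9, a membrane-bound metalloprotease, went from 430.1, 419 and 424 to 121, 117 and 119.6 CPM (-1.83 ± 0.037). Rtn4, which encodes the membrane-shaping protein Nogo, went from 796, 878 and 787 to 233, 233 and 239 CPM (-1.80 ± 0.047). In all 3 genes the replicates of a group lay close together and the groups far apart. Upk1b, a uroplakin, was more spread, at 4.33, 6.98 and 5.04 CPM against 1.10, 2.25 and 1.37 CPM (-1.80 ± 0.31).

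The other 7 fell to between 0.293 and 0.348 of their control levels. Ndufb2, a subunit of respiratory complex I, was at 25.6, 29.9 and 25.5 CPM in shScr and 7.86, 9.08 and 6.81 CPM with shRela-1, and Erlin2, an endoplasmic reticulum protein of lipid-rich domains, at 86.8, 95.7 and 86.0 CPM and 26.4, 27.9 and 26.2 CPM. Inpp5a, a phosphatase of inositol phosphates, was at 107, 106 and 108 CPM and 35.1, 30.1 and 36.9 CPM, and the nuclear RNA-binding protein gene C1d at 24.6, 26.9 and 23.4 CPM and 7.81, 7.97 and 8.23 CPM. Their log2 fold changes ran from -1.77 to -1.64. Sfrp1, a secreted antagonist of Wnt signals, went from 105, 151 and 134 to 35.7, 50.2 and 45.7 CPM (-1.56 ± 0.16). Tpbg, a trophoblast glycoprotein, changed by -1.55 ± 0.055, and Man2a1, the Golgi mannosidase II, by -1.52 ± 0.068. Across these 11 genes adjusted p ran from 8.73e-10 to 0.00209 (edgeR). That each passed and was lower in 3 of 3 numbered pairs follows from the naming rule. Exons of Rtn4, Ndufb2, Inpp5a, Tpbg and Man2a1 overlap an annotated gene on the opposite strand, and the library kit does not mark strand.

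All 11 hold a 7- or 8-letter form in the 3' UTR, where 1485 of 14008 genes do (10.6%). Adam9 and Inpp5a hold GGTGTAA and the other 9 hold AGGTGTA. Because these genes took part in finding the letters, the count is a description. Of the genes that fell by more than 2-fold and have a 3' UTR, 41 of 102 hold AGGTGTA (40.2%), against 351 of 1738 that fell less (20.2%), 64 of 1822 that rose and 560 of 10346 that did not pass (5.41%). All 11 were also higher in shRela-2 than in shRela-1, by 0.90 ± 0.058 (Erlin2) to 2.22 ± 0.037 (Adam9). Their choice by low values in the same shRela-1 samples favors this direction. Against shScr, shRela-2 gave -0.35 ± 0.082 for Lipa, -0.84 ± 0.057 for Erlin2 and 0.13 ± 0.045 for Rtn4.

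Genes of heme and iron handling, aldehyde oxidation and contraction were among the 12 largest rises. Hmox1, heme oxygenase, which breaks heme down to iron, carbon monoxide and biliverdin, was at 182, 195 and 170.0 CPM in shScr and 524, 554 and 456 CPM with shRela-1 (1.49 ± 0.075, adjusted p = 4.16e-07, edgeR). Slc40a1, ferroportin, the exporter of iron, went from 3.55, 5.01 and 4.32 to 8.73, 11.0 and 11.2 CPM (1.26 ± 0.19). Aldh1a1, a retinaldehyde dehydrogenase, went from 4.31, 7.38 and 5.52 to 9.28, 15.9 and 11.8 CPM (1.10 ± 0.25), and its close paralog Aldh1a7, which may share reads with it, changed by 1.18 ± 0.32. Every shRela-1 sample of these genes lay above every control. Aldh1a7 lost its call when shScr replicate 1, shScr replicate 3 or shRela-1 replicate 2 was left out (adjusted p = 0.0702, 0.09 and 0.0856, edgeR). With all samples and the replicate block its adjusted p was 3.46e-06 (edgeR).

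F3, tissue factor, the starter of blood clotting, rose from 264, 236 and 227 to 517, 467 and 477 CPM (1.01 ± 0.064). Mylk, the kinase of myosin light chains, went from 113, 98.2 and 108 to 232, 196 and 221 CPM (1.02 ± 0.085), and Maoa, monoamine oxidase A, from 66.7, 79.0 and 67.6 to 140.4, 146 and 144 CPM (1.01 ± 0.086). The groups of these 3 genes lay apart with narrow spread in each. Kcnj6, a potassium channel, went from 1.42, 1.497 and 1.30 to 4.91, 3.74 and 3.49 CPM (1.52 ± 0.16), and Rab3c, a GTPase of secretory vesicles, from 3.25, 2.68 and 3.91 to 8.68, 7.45 and 8.41 CPM (1.32 ± 0.14). Ccdc81 changed by 1.47 ± 0.21 and Me3, a mitochondrial malic enzyme, by 1.13 ± 0.30. Of these genes, Kcnj6 and Me3 hold AGGTGTA in the 3' UTR. Without shRela-1 replicate 2 the adjusted p of Me3 was 0.0697, and with all samples and the replicate block it was 7.71e-07 (edgeR). Exons of Kcnj6, Me3 and Mylk overlap an annotated gene on the other strand.

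**Figure D2:**
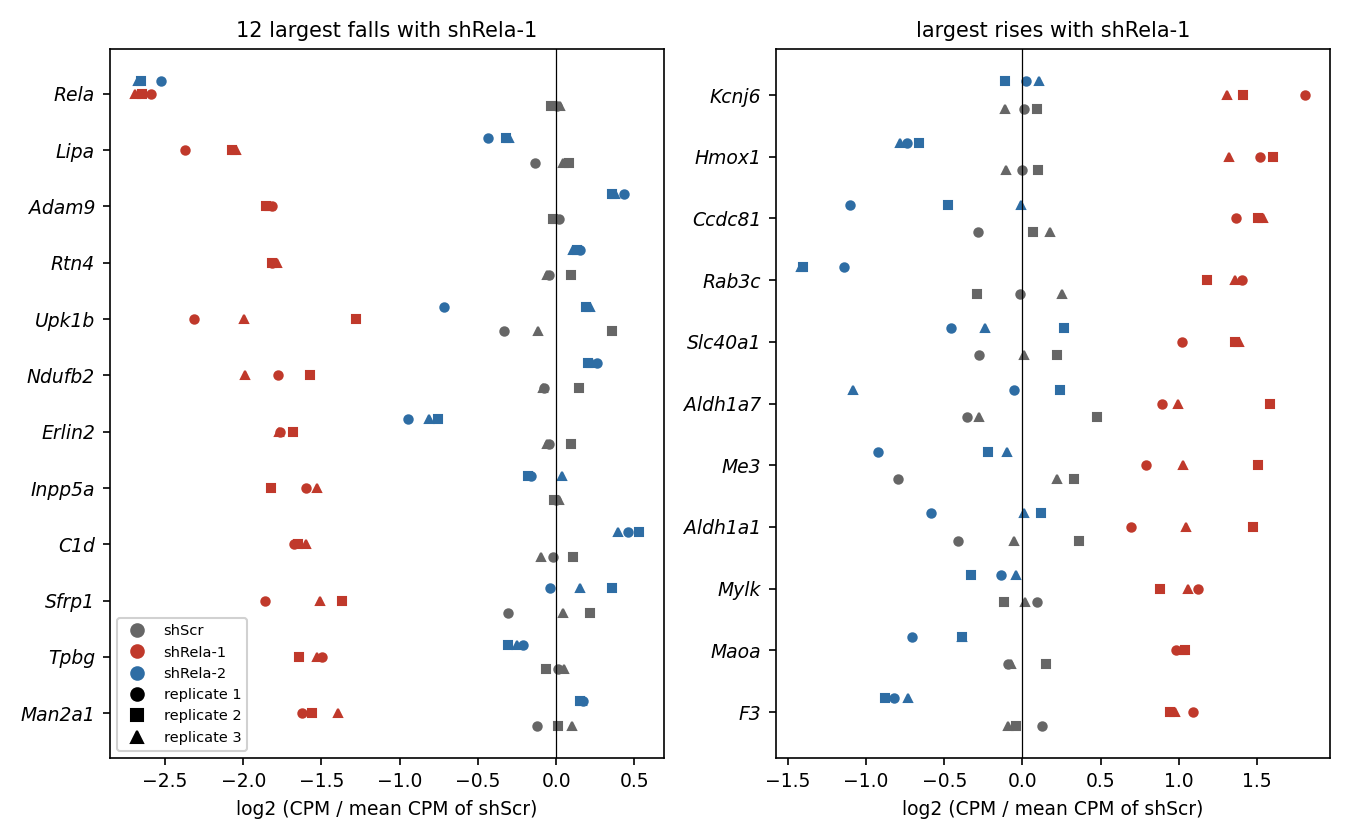
Level of the genes with the 12 largest falls (left) and of 11 with the largest rises (right) with shRela-1, as log2 of CPM over the mean CPM of shScr (horizontal axis), with 1 point per sample, grey for shScr, red for shRela-1 and blue for shRela-2, and the replicate number as shape. For each gene the red points lie apart from the grey ones, and for Rela, at -2.64, red and blue points lie together.

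NF-kB subunits other than p65 were also lower. Relb, a subunit of the alternative pathway, stood at 19.4, 19.5 and 21.6 CPM in shScr and 14.3, 14.2 and 12.4 CPM with shRela-1 (-0.56 ± 0.082, adjusted p = 0.000676, edgeR). Nfkb1, which encodes p105 and p50, the usual partner of p65, stood at 65.2, 60.7 and 63.7 CPM and 52.1, 51.2 and 50.1 CPM (-0.31 ± 0.039). In both genes all 3 shRela-1 samples lay below all controls. Nfkb2, the p100 and p52 precursor, changed by -0.18 ± 0.053, and it lost its call when shScr replicate 3 or shRela-1 replicate 1 or 3 was left out (adjusted p from 0.0753 to 0.113, edgeR). Rel was at 0.12 ± 0.13 and did not pass. None of the 5 genes holds GGTGTA in its 3' UTR. Between the hairpins Relb differed by -0.043 ± 0.083 and Nfkb1 by 0.041 ± 0.039, and neither difference passed.

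Of 13 inhibitors and feedback regulators of NF-kB, 3 fell (23.1%), beside 12.4% of all genes. Nfkbia, IkB-alpha, which is both an inhibitor and a target of p65, went from 29.5, 30.5 and 31.9 to 21.5, 24.1 and 20.9 CPM (-0.46 ± 0.063, adjusted p = 0.000387, edgeR). Nfkbie, IkB-epsilon, went from 5.40, 5.23 and 5.95 to 3.61, 3.56 and 3.06 CPM (-0.70 ± 0.11). The groups did not overlap in either gene. Cyld, a deubiquitinase that dampens signals to IKK, changed by -0.48 ± 0.12 and holds AGGTGTA in its coding sequence but not in its 3' UTR. Its adjusted p was 0.0529 without shScr replicate 2, and 4.77e-08 with all samples and the replicate block (edgeR). Tnfaip3, which encodes A20, was at 0.084 ± 0.085, and Nfkbiz at 0.36 ± 0.15, without passing. With the replicate block, 5 of the 13 fell and 1 rose, beside 18.9% and 20.4% of all genes.

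Kinases and adaptors that lead to NF-kB fell in 9 of 28 members (32.1%, beside 12.4% of all genes) and rose in 2 (7.14%, beside 12.3%). Their median was -0.087 beside 0.0026 over all genes. With the replicate block 10 fell and 4 rose, beside 18.9% and 20.4% of all genes. Ikbkb, which encodes the catalytic IKK-beta, stood at 52.5, 52.0 and 49.3 CPM in shScr and 20.2, 20.6 and 21.6 CPM with shRela-1, down to 0.405 of the control level (-1.30 ± 0.047, adjusted p = 5.68e-08, edgeR). Traf6, the adaptor of toll-like and interleukin-1 receptors, went from 24.4, 22.6 and 22.5 to 15.5, 15.8 and 14.9 CPM (-0.59 ± 0.071). In both, the 3 shRela-1 samples lay below all controls. Both also hold AGGTGTA in the 3' UTR, and both were higher in shRela-2 than in shRela-1 (1.22 ± 0.047 and 0.85 ± 0.071). Traf2 changed by -0.38 ± 0.077, Ikbke, an IKK-related kinase, by -0.36 ± 0.057, Tlr2 by -0.44 ± 0.097 and Tlr3 by -0.78 ± 0.18. Map3k7, which encodes TAK1, rose from 111, 112 and 109.8 to 134, 132 and 137 CPM (0.28 ± 0.033), and Irak2 rose by 0.45 ± 0.059. Of the 10 members with GGTGTA in the 3' UTR 6 fell, and of the 17 without it 3 fell and 2 rose. Over all genes 21.9 to 51.4% of those with GGTGTA fell, by class, and 8.93% of those without.

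Other known targets of NF-kB fell in 9 of 25 members (36.0%, beside 12.4% of all genes) and rose in 4 (16.0%, beside 12.3%), with a median of -0.131. Irf1, an interferon regulatory factor, stood at 13.9, 14.2 and 12.1 CPM in shScr and 6.07, 6.49 and 5.54 CPM with shRela-1 (-1.15 ± 0.11, adjusted p = 3.86e-05, edgeR). Ptges, a prostaglandin E synthase, went from 84.2, 79.0 and 83.8 to 51.4, 51.1 and 47.5 CPM (-0.72 ± 0.049). Cflar, the caspase-8 inhibitor c-FLIP, went from 132, 136 and 132 to 84.1, 83.6 and 83.3 CPM (-0.67 ± 0.036). The groups stood well apart in these 3 genes. Irf1 and Ptges each hold AGGTGTA 2 times in the 3' UTR, and all 3 genes were higher in shRela-2 than in shRela-1, by 0.98 ± 0.11, 0.86 ± 0.049 and 0.68 ± 0.036. Cd44, the hyaluronan receptor, also fell (-0.46 ± 0.046). Csf1, the macrophage growth factor, rose (0.50 ± 0.063), as did Gadd45b (0.25 ± 0.047). Vcam1 at 0.11 ± 0.053, Icam1 at -0.12 ± 0.084 and Sod2 at -0.13 ± 0.049 did not pass. Of the 8 members with GGTGTA in the 3' UTR 7 fell, beside 21.9 to 51.4% by class over all genes. Of the 16 without it 2 fell and 4 rose, beside 8.93% and 14.2%. Leaving out shScr replicate 3 or shRela-1 replicate 3 gave 2 rises. Exons of Irf1 overlap Gm17334 on the opposite strand.

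**Figure D3:**
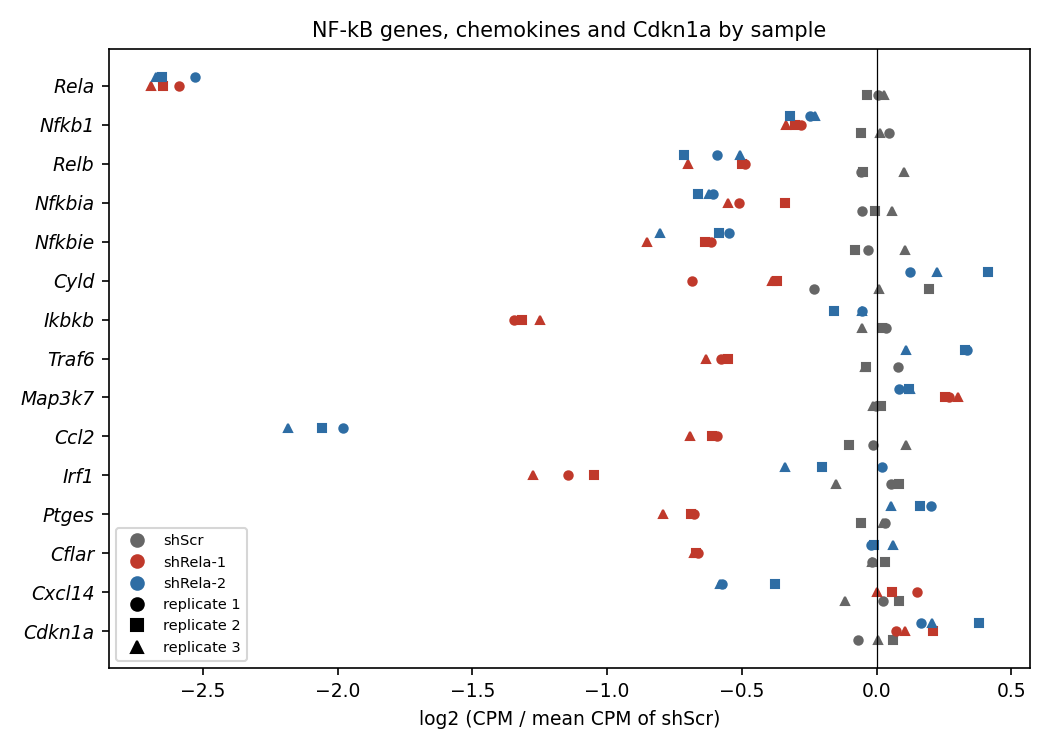
Level of NF-kB pathway genes, targets, chemokines and Cdkn1a in each sample, as log2 of CPM over the mean CPM of shScr (horizontal axis), with 1 point per sample, colored by group and shaped by replicate number. For Relb and Nfkbia the red (shRela-1) and blue (shRela-2) points both lie below the grey controls, while for Ikbkb, Traf6, Irf1, Ptges and Cflar only the red points lie far below them.

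Promoters of 2 NF-kB targets are shown, which both hold letters of a kappaB-like site, GGGNNTTTCC on either strand. One transcript passed and the other did not, and the 2 were chosen with these values known. Whether their changes differ was not tested. The site of Nfkbia begins 29 bases before the start of transcription, and those of Cxcl1, a neutrophil chemokine, begin 89 and 71 bases before it. Each line gives 250 bases before to 50 after the start (RefSeq, GRCm38.p6), with matches in capitals.
Nfkbia, chr12:55492598-55492897, minus strand: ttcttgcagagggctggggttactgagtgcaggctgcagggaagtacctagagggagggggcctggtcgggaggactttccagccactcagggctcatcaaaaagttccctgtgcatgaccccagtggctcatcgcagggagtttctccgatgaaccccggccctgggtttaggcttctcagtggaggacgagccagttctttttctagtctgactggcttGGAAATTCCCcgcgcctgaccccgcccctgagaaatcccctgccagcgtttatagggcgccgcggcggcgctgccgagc
Cxcl1, chr5:90890995-90891294, plus strand: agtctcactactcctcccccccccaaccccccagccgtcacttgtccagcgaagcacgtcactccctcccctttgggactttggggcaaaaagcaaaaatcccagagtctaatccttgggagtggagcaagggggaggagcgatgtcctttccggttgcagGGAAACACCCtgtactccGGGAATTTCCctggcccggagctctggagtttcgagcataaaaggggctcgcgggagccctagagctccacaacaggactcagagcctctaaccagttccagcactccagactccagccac

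Nfkbia fell, as given above, and Cxcl1 stood at 2.91, 3.38 and 2.16 CPM in shScr and 3.38, 4.51 and 0.668 CPM with shRela-1 (0.019 ± 0.53, adjusted p = 0.986, edgeR). The Cxcl1 samples of the groups overlapped. The letters occur in 189 of 11360 promoters of tested genes (1.66%), in 34 of 1464 of genes that fell (2.32%) and in 19 of 1432 of genes that rose (1.33%). The median log2 fold change was -0.032 with the letters and 0.006 without. Among the 118 pathway and SASP list members with a promoter in the table, 14 hold them, of which 6 fell and 2 rose. Of all 189 promoters with the letters, 34 were of genes that fell and 19 of genes that rose. In each of these lists the share that fell was above the 12.4% of all genes, so the 6 of 14 is a description. Nfkbia, Nfkb2, Cyld, Traf2, Traf3 and Tlr3 fell, and Csf1 and Map3k7 rose. The other 6 did not pass, among them Il6 (0.29 ± 0.23), Cxcl2 (-0.34 ± 0.23) and Ccl20 (-0.72 ± 0.26). The match marks letters in a window and not a bound site.

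Chemokines fell in 5 of 21 members (23.8%, beside 12.4% of all genes, and 2 of 21 without shScr replicate 3), with a median of -0.231. Ccl2, which attracts monocytes, stood at 232, 218 and 253 CPM in shScr and 156, 153 and 145 CPM with shRela-1, with no overlap (-0.63 ± 0.064, adjusted p = 6.24e-05, edgeR). The difference between the hairpins in Ccl2 was -1.44 ± 0.066, so that the level with shRela-1 lay between those of shScr and shRela-2. Cx3cl1, fractalkine, changed by -0.32 ± 0.064, and Ccl27a, whose exons overlap Il11ra1, by -0.49 ± 0.12 (adjusted p = 0.0511 without shScr replicate 3, edgeR). Cxcl14, another chemokine, stood at 234, 244 and 212 CPM in shScr and 255, 239 and 230.0 CPM with shRela-1, where the groups overlapped (0.071 ± 0.069, adjusted p = 0.513). Without shRela-1 replicate 1 or 3 the number that fell was 3. Without shRela-2 replicate 1, 2 of the 21 rose. The replicate block gave 8 falls and 4 rises, beside 18.9% and 20.4% of all genes.

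Cytokines and growth factors of the SASP fell in 8 of 36 members (22.2%, beside 12.4% of all genes) and rose in 2 (5.56%, beside 12.3%), with a median of -0.102. Pdgfa, a platelet-derived growth factor, stood at 30.9, 34.7 and 32.1 CPM in shScr and 19.4, 20.4 and 17.6 CPM with shRela-1 (-0.77 ± 0.065). Hbegf, a ligand of the EGF receptor, went from 102, 109.6 and 113 to 65.5, 66.3 and 69.3 CPM (-0.69 ± 0.069). Tnfrsf11b, osteoprotegerin, the decoy receptor of RANKL, went from 80.2, 84.1 and 83.0 to 60.1, 64.2 and 65.5 CPM (-0.38 ± 0.045). The 3 shRela-1 samples lay below all controls in each (adjusted p from 1.68e-05 to 0.00017, edgeR). Inhba, an activin subunit, also fell (-0.45 ± 0.059), as did Lif (-0.37 ± 0.077) and Tnfsf11, RANKL itself (-0.94 ± 0.12). Ereg, epiregulin, rose (0.32 ± 0.066). Il6 did not pass, as given above, and Igfbp3 was at 0.24 ± 0.18. Of the 6 members with GGTGTA in the 3' UTR 4 fell, beside 21.9 to 51.4% by class over all genes. Of the 30 without it 4 fell and 2 rose, beside 8.93% and 14.2%. With the block 13 fell and 7 rose, beside 18.9% and 20.4% of all genes. The rises numbered 1 when shScr replicate 1 or 3, shRela-1 replicate 2 or 3, or shRela-2 replicate 3 was left out.

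Proteases and their inhibitors moved both ways, 6 of 27 up and 6 down (22.2% each way, beside 12.3% and 12.4% of all genes). The block gave 10 and 10, where 20.4% and 18.9% of all genes passed. Adam9 fell most among them, as given above. Adam12 also fell (-0.49 ± 0.079), and Adam10 rose from 138, 142 and 138 to 169, 169 and 173 CPM (0.29 ± 0.036, adjusted p = 0.00026, edgeR). Plaur, the urokinase receptor, rose by 0.36 ± 0.057, and Adam17, which sheds TNF from the cell surface, by 0.22 ± 0.035. Reck, which restrains matrix proteases, was also higher (0.54 ± 0.073).

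Of 21 genes of MHC class I antigen presentation 6 fell (28.6%, beside 12.4% of all genes) and 1 rose, with a median of -0.289. H2-T23, a non-classical class I molecule with close paralogs that may share its reads, stood at 37.4, 35.8 and 34.1 CPM in shScr and 20.9, 21.2 and 19.9 CPM with shRela-1 (-0.79 ± 0.077, adjusted p = 4.43e-05, edgeR). The peptide transporter subunit Tap2 (-0.31 ± 0.073), the peptide editor Tapbpl (-0.45 ± 0.089), the trimming peptidase Erap1 (-0.39 ± 0.081) and the chaperone Canx (-0.26 ± 0.040) fell as well, and Pdia3 rose (0.21 ± 0.041). The main light chain B2m was at -0.027 ± 0.082 and the classical gene H2-K1 at -0.084 ± 0.13, and neither passed. Of the 17 members without GGTGTA in the 3' UTR 5 fell, beside 8.93% of all genes without it. The block gave 11 falls and 2 rises (beside 18.9% and 20.4% of all genes), and leaving out shScr replicate 1 gave 2 rises.

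No gene of the interferon response list passed (0 of 28 by edgeR and by limma voom, with 1 at an unadjusted p under 0.05). Even so, 23 of the 28 values lay below 0 and the median was -0.223. The list does not hold Irf1 or the chemokine gene Cxcl10, which are counted in other lists and fell (-1.15 and -1.39). Cxcl10 lost its call in 6 of the alternative settings. Irf9, a subunit of the interferon-activated factor ISGF3, stood at 48.1, 43.6 and 45.7 CPM in shScr and 32.5, 40.8 and 37.7 CPM with shRela-1, without overlap (-0.31 ± 0.12, adjusted p = 0.0999, and 0.00865 once replicates were blocked, edgeR). Zbp1, a sensor of nucleic acids, changed by -0.81 ± 0.37 (adjusted p = 0.14, or 0.0172 with the block), and its samples overlapped. Mx1 was at -1.05 ± 0.60. With the block 2 of the 28 fell (18.9% of all genes did), with DESeq2 1, and without shRela-2 replicate 1 or in a fit of the 6 samples 2.

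**Figure D4:**
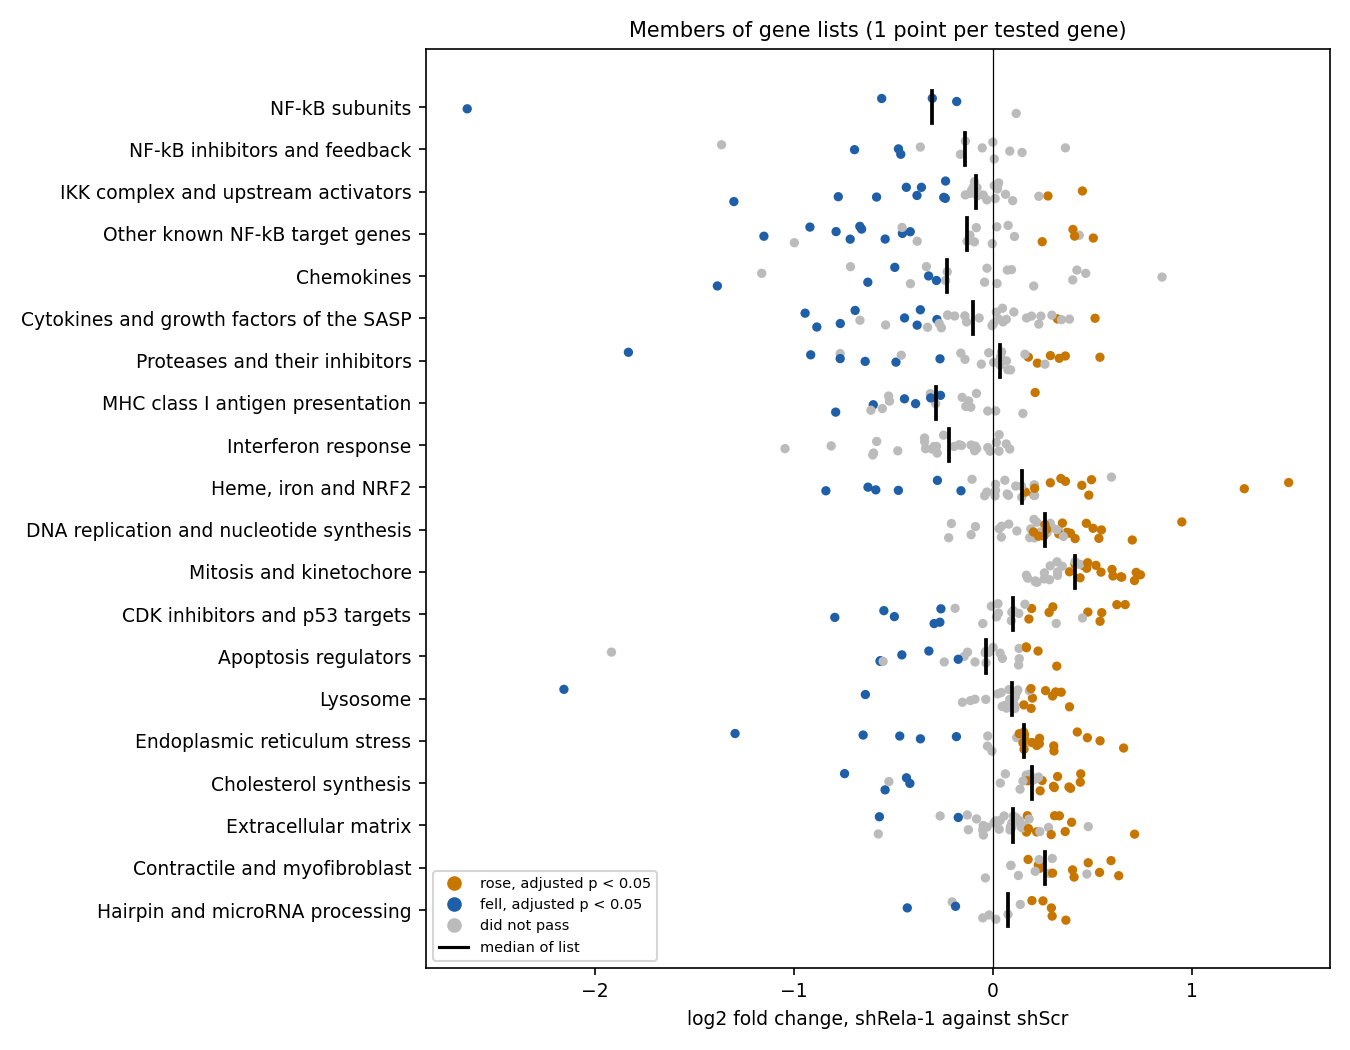
Log2 fold change with shRela-1 against shScr (horizontal axis) of each tested member of 20 gene lists, 1 point per gene, orange for genes that rose, blue for genes that fell, grey for genes that did not pass, and a black bar at the list's median. All points of the mitosis list lie above 0 with a median of 0.411, and the points of the interferon list are grey with a median of -0.223.

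Genes of iron handling and of the oxidative stress factor NRF2 rose in 11 of 33 members (33.3%, beside 12.3% of all genes) and fell in 6 (18.2%, beside 12.4%), with a median of 0.143. Beside Hmox1 and Slc40a1, Ftl1, the light chain of the iron store ferritin, went from 2765, 2744 and 2668 to 3926, 3911 and 3574 CPM (0.48 ± 0.046, adjusted p = 3.96e-05, edgeR), though ferritin pseudogenes may take part of its reads. The heavy chain gene Fth1 (0.34 ± 0.078), Gclm, a subunit of the enzyme that limits glutathione synthesis (0.49 ± 0.080), Srxn1 (0.36 ± 0.038), Gstm1 (0.45 ± 0.084) and the heme transporter gene Slc48a1 (0.29 ± 0.041) rose too. Bach1, the repressor that heme removes from the Hmox1 gene, fell (-0.48 ± 0.046), as did Keap1, which targets NRF2 for destruction (-0.16 ± 0.032). Nqo1 was at 0.59 ± 0.26 and Slc7a11 at 0.21 ± 0.24 without passing. Tkt, transketolase, went from 214, 201 and 201 to 139.9, 135 and 134 CPM (-0.59 ± 0.042) and holds AGGTGTA in the 3' UTR. With shRela-2 Hmox1 moved the other way, and it was lower there than with shRela-1 by -2.21 ± 0.077. With the block 17 rose (20.4% of all genes did), and without shRela-1 replicate 2, 3 fell.

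Genes of DNA replication and nucleotide synthesis rose in 17 of 39 members (43.6%), beside 12.3% of all genes, and the median was 0.260. Rrm2, a ribonucleotide reductase subunit, stood at 34.2, 34.9 and 35.4 CPM in shScr and 55.9, 49.0 and 46.1 CPM with shRela-1 (0.53 ± 0.067, adjusted p = 0.000251, edgeR). The replication helicase gene Mcm3 went from 20.6, 21.3 and 21.2 to 27.5, 29.0 and 27.5 CPM (0.41 ± 0.062), and Mcm2 changed by 0.50 ± 0.071. All 3 shRela-1 samples lay above all controls in these genes. Ccne2, cyclin E2, rose by 0.95 ± 0.17, Orc1, of the origin recognition complex, by 0.70 ± 0.16, Lig1, DNA ligase 1, by 0.54 ± 0.094 and Pcna, the sliding clamp, by 0.26 ± 0.044. Ccne1 was at -0.22 ± 0.078 and E2f1 at 0.030 ± 0.073, and neither passed. In the comparison of hairpins 34 of the 39 were lower in shRela-2 than in shRela-1, beside 19.9% of all genes. With shRela-2 against shScr, 20 of the 39 fell themselves, beside 15.4% of all genes, with a median of -0.307.

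Mitosis and kinetochore genes had values above 0 in all 30 members, with a median of 0.411, and 15 rose, beside 12.3% of all genes. Top2a, topoisomerase II alpha, stood at 24.7, 26.6 and 25.9 CPM in shScr and 39.7, 34.6 and 36.1 CPM with shRela-1 (0.52 ± 0.072, adjusted p = 0.000503, edgeR). Nuf2, of the kinetochore, went from 4.37, 4.46 and 3.91 to 7.63, 6.38 and 7.27 CPM (0.74 ± 0.12) and Ccna2, cyclin A2, from 8.26, 7.89 and 8.19 to 12.4, 10.2 and 11.1 CPM (0.47 ± 0.086). The groups did not overlap in these 3 genes. Kif11, Cenpa, Birc5 and Mki67 changed by 0.65 ± 0.13, 0.72 ± 0.14, 0.71 ± 0.16 and 0.38 ± 0.090. Cdk1 was at 0.21 ± 0.15 and did not pass. Of the 26 members without GGTGTA in the 3' UTR, 13 rose, beside 14.2% of all genes without it. With the block 26 rose (20.4% of all genes did), and without shScr replicate 3, 9 of the 30 rose. With shRela-2 against shScr 23 of the 30 fell (15.4% of all genes did). Between the hairpins 29 were lower in shRela-2 than in shRela-1 (19.9% of all genes were), for example Nuf2 by -2.13 ± 0.13. Exons of Ccna2 overlap Exosc9 on the opposite strand.

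Cell cycle inhibitors and p53 targets rose in 9 of 28 members (32.1%, beside 12.3% of all genes) and fell in 6 (21.4%, beside 12.4%). Cdkn1a, which encodes p21, stood at 919, 1006 and 967 CPM in shScr and 1012, 1113 and 1036 CPM with shRela-1 (0.13 ± 0.063, adjusted p = 0.169, and 0.00192 once replicates were blocked, edgeR). It was higher in each of the 3 numbered pairs, and the lowest shRela-1 sample was about level with the highest control. Zmat3, an RNA-binding p53 target, went from 184, 213 and 204 to 114, 114 and 118 CPM (-0.80 ± 0.055). Btg2, an antiproliferative p53 target, rose from 112, 102 and 102 to 151, 148 and 142 CPM (0.48 ± 0.046), and Sesn2, a stress sensor of metabolism, from 68.2, 75.5 and 75.4 to 99.5, 114 and 104 CPM (0.54 ± 0.061). The groups of these 3 genes did not overlap. The BH3-only killer genes Bbc3 and Pmaip1 rose by 0.62 ± 0.092 and 0.30 ± 0.053, Cdkn1b, which encodes p27, by 0.55 ± 0.11, and the death receptor gene Tnfrsf10b by 0.28 ± 0.033. Trp53 itself fell (-0.26 ± 0.039), as did Eda2r (-0.55 ± 0.084) and Rrm2b (-0.50 ± 0.082). Of the 9 members with GGTGTA in the 3' UTR 5 fell, beside 21.9 to 51.4% by class over all genes. Of the 19 without it 9 rose and 1 fell, beside 14.2% and 8.93%. With the block 14 rose, beside 20.4% of all genes.

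Apoptosis regulators rose in 4 of 25 members (16.0%, beside 12.3% of all genes) and fell in 5 (beside 12.4%), with a median of -0.037. Bcl2l11, which encodes the BH3-only protein BIM, stood at 18.4, 16.7 and 18.1 CPM in shScr and 12.6, 11.2 and 12.0 CPM with shRela-1 (-0.57 ± 0.066). Bid changed by -0.57 ± 0.13, Mlkl, the executor of necroptosis, by -0.46 ± 0.11, and Bad rose (0.23 ± 0.050). Adjusted p for these 4 ran from 0.000148 to 0.0111 (edgeR). Bcl2 was at -0.037 ± 0.081 and Mcl1 at -0.15 ± 0.070, and neither passed. Leaving out shScr replicate 3 gave 1 rise, leaving out shRela-1 replicate 2 or 3 gave 2, and the block gave 8 falls (beside 18.9% of all genes).

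Lysosomal genes rose in 9 of 32 members (28.1%, beside 12.3% of all genes) and fell in 2 (6.25%, beside 12.4%), Lipa and Gusb. Gusb, beta-glucuronidase, went from 91.1, 94.1 and 90.8 to 61.7, 60.4 and 54.7 CPM (-0.64 ± 0.046, adjusted p = 5.24e-06, edgeR). Hexa, a subunit of beta-hexosaminidase, rose from 215, 211 and 215 to 263, 249.8 and 256 CPM (0.26 ± 0.035). The groups of both genes lay apart. Npc1, which moves cholesterol out of lysosomes, rose by 0.34 ± 0.059 and Neu1, a sialidase, by 0.30 ± 0.050. Glb1, the galactosidase behind the common stain for senescent cells, was at 0.18 ± 0.067 (adjusted p = 0.0738). With the block 17 rose, beside 20.4% of all genes.

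Endoplasmic reticulum stress genes rose in 16 of 27 members (59.3%, beside 12.3% of all genes) and fell in 5 (18.5%, beside 12.4%). Herpud1, of the degradation machinery, rose by 0.66 ± 0.076, the stress sensor gene Atf6 by 0.42 ± 0.048, Pdia6 by 0.31 ± 0.056, Hyou1 by 0.22 ± 0.036 and Hspa5, the chaperone BiP, by 0.16 ± 0.038. Against that, Hsp90b1, the chaperone GRP94, stood at 1526, 1419.7 and 1444 CPM in shScr and 611, 578 and 597 CPM with shRela-1, down to 0.407 of the control level (-1.30 ± 0.042, adjusted p = 3.84e-08, edgeR). The sensor gene Ern1, which encodes IRE1, went from 24.8, 24.96 and 25.9 to 18.6, 17.9 and 18.1 CPM (-0.47 ± 0.047), and Sdf2l1 and Manf changed by -0.65 ± 0.088 and -0.37 ± 0.067. Of the 11 members with GGTGTA in the 3' UTR 5 fell and 3 rose, beside 21.9 to 51.4% and 6.12 to 8.95% by class over all genes. Of the 16 without it 13 rose, beside 14.2%. Hsp90b1 was higher in shRela-2 than in shRela-1 by 1.37 ± 0.042. Its exons overlap 1810014B01Rik on the opposite strand.

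In cholesterol synthesis 10 of 24 genes rose (41.7%, beside 12.3% of all genes) and 4 fell (16.7%, beside 12.4%). Sqle, squalene epoxidase, rose from 112, 105 and 102 to 139, 124 and 133 CPM (0.31 ± 0.051, adjusted p = 0.00149, edgeR). Msmo1, a sterol C4 methyl oxidase, went from 107, 88.4 and 88.8 to 59.4, 52.7 and 56.9 CPM (-0.75 ± 0.086, adjusted p = 0.000139), and Dhcr7, a reductase of the last step, changed by -0.44 ± 0.073. The groups of Sqle and Msmo1 did not overlap. The block gave 16 rises (beside 20.4% of all genes), and leaving out shScr replicate 2 or 3 or shRela-1 replicate 1 gave 5.

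Contractile genes rose in 11 of 20 members (55.0%, beside 12.3% of all genes), with a median of 0.261 and 19 values above 0, and no member holds GGTGTA in its 3' UTR. Myh11, smooth muscle myosin, stood at 352, 301 and 339 CPM in shScr and 527, 456 and 513 CPM with shRela-1 (0.59 ± 0.074, adjusted p = 0.00023, edgeR). Myl9, its light chain, went from 782, 686 and 704 to 1166, 970.4 and 1011 CPM (0.53 ± 0.075) and Vcl, vinculin of focal adhesions, from 1103, 998 and 983 to 1436, 1305 and 1347 CPM (0.41 ± 0.053). All shRela-1 samples lay above all controls in these genes. Acta2, smooth muscle actin, rose by 0.48 ± 0.075 and Tagln by 0.40 ± 0.082, while Flna was at -0.039 ± 0.058 without passing. With the block 19 rose, beside 20.4% of all genes. In the comparison of hairpins 15 of the 20 were lower in shRela-2, beside 19.9% of all genes. With shRela-2 against shScr, 4 of the 20 fell, beside 15.4% of all genes.

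Of 41 extracellular matrix genes 10 rose (24.4%, beside 12.3% of all genes) and 2 fell (4.88%, beside 12.4%). Ogn, the proteoglycan osteoglycin, went from 125, 131 and 123 to 194, 198 and 227 CPM (0.71 ± 0.064, adjusted p = 2.5e-05, edgeR), and Col3a1, a fibrillar collagen, from 4271, 4694 and 4979 to 5295, 6093 and 6173 CPM (0.33 ± 0.071). Lamc1, a laminin chain, rose by 0.39 ± 0.084. Col5a3 went from 187, 180.3 and 214 to 129, 125 and 137 CPM (-0.57 ± 0.089) and thrombospondin 1, Thbs1, changed by -0.18 ± 0.041. Col1a1 and Fn1 were at 0.10 ± 0.043 and 0.085 ± 0.083, and neither passed. With the block 24 rose and 7 fell, where 20.4% and 18.9% of all genes did. The rises numbered 6 when shScr replicate 1 was left out, and 5 and 4 when shRela-1 replicate 2 or 3 was.

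Genes that process hairpins and microRNAs rose in 5 of 13 members (38.5%, beside 12.3% of all genes) and fell in 2 (15.4%, beside 12.4%). Ago1, one of the 4 Argonaute genes of the list, went from 56.9, 55.8 and 57.9 to 40.9, 42.5 and 43.0 CPM (-0.43 ± 0.033, adjusted p = 8.46e-06, edgeR). The scaffold genes of the silencing complex Tnrc6a and Tnrc6c rose, from 77.2, 74.3 and 71.9 to 99.6, 90.0 and 98.2 CPM (0.37 ± 0.045) and from 35.1, 36.1 and 36.3 to 42.4, 44.8 and 44.5 CPM (0.29 ± 0.040). The groups did not overlap in these 3 genes. Dicer1 rose by 0.19 ± 0.039, and Ago2, the Argonaute that cuts its targets, was at 0.075 ± 0.035 and did not pass. Tnrc6a holds AGGTGTA in its 3' UTR.

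The 5 highest and 5 lowest genes between the hairpins were taken only from genes that also passed in shRela-1 against shScr. Groups had to be apart in both comparisons, so overlap with genes already named is built in. Genes that only shRela-2 changed could not appear. By the rule, the 5 genes highest in shRela-2 against shRela-1 were Adam9, C1d, Lce1h, Pxdn and Ndufb2, and the 5 lowest were Rab3c, Hmox1, Tspan2, Nuf2 and Papss2. Pxdn, peroxidasin, which crosslinks basement membrane collagen, was at 429, 380.2 and 399.8 CPM in shScr, 148, 139 and 147 CPM with shRela-1 and 624, 575 and 545 CPM with shRela-2 (2.01 ± 0.062 between hairpins, adjusted p = 1.14e-08, edgeR). Lce1h, of the keratinocyte envelope, was at 9.69, 10.1 and 8.95, 7.25, 5.40 and 6.06 and 27.9, 22.5 and 26.4 CPM. Both fell with shRela-1 and stood above the controls with shRela-2. Tspan2, a tetraspanin, was at 35.4, 33.6 and 31.8, 43.9, 37.8 and 42.8 and 9.03, 8.64 and 10.2 CPM, and Papss2, which makes the sulfate donor PAPS, at 48.7, 53.8 and 49.5, 58.2, 59.3 and 61.3 and 15.3, 14.5 and 15.8 CPM. In these the shRela-2 samples were the low ones. The rise of Tspan2 with shRela-1 had an adjusted p of 0.0614 when shScr replicate 3 was left out and 0.0515 when shRela-1 replicate 3 was (edgeR). Comparisons of the 2 hairpins with shScr share their control samples, and the direct comparison reuses the shRela-1 samples.

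All 10 fibroblast markers were above 1 CPM in both groups. They summed to 48740 to 55500 CPM in shScr and 54020 to 56800 CPM with shRela-1. Of the 10, 1 rose (Thy1) and 1 fell (Pdgfrb), beside 12.3% and 12.4% of all genes tested. Markers of macrophages and blood cells summed to 493.5 to 722.2 CPM and 473.6 to 660.6 CPM, mostly Lyz2, and 0 of 15 passed (edgeR, with 0 at an unadjusted p under 0.05). Neural markers summed to 233.1 to 252.4 CPM in shScr and 184.9 to 187.9 CPM with shRela-1. Of 7 tested, 2 fell, Tubb3 (-0.55 ± 0.045) and Nes (-0.28 ± 0.070), and 0 rose. Muscle markers summed to 104.7 to 175.8 CPM and 177.8 to 302.3 CPM. Only 4 were tested, of which Acta1 (0.80 ± 0.24) and Actc1 (1.84 ± 0.50) rose and the other 2 had values below 0. The defining factors Myod1 and Myog stayed too low to be tested. Epithelial markers summed to 19.33 to 25.6 CPM and 27.57 to 39.57 CPM. Of 7 tested, 1 rose, Krt19 (0.54 ± 0.12), and 3 values lay below 0. Adipocyte markers summed to 23.16 to 34.72 CPM and 34.49 to 46.22 CPM. Of 4 tested, 1 rose, Pparg (0.76 ± 0.19), and 1 value lay below 0. Endothelial markers summed to 10.47 to 12.01 CPM and 8.953 to 10.07 CPM, and 0 of 8 tested passed (edgeR). The part of such cells in the results was not tested. The calls of Thy1, Pdgfrb, Nes, Acta1, Actc1 and Pparg were each lost without single samples.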

How the data were processed

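RNA from 9 samples (3 each of shScr, shRela-1 and shRela-2) was made into libraries with the TruSeq v2 chemistry for RNA, as the labels' protocols state. The deposited values are raw counts for each gene symbol, in 1 column per sample. Per the submitters' processing notes the tools were TopHat2 2.0.14 and Bowtie2 2.2.6, with featureCounts 1.4.6 of Subread and the build mm10, and their roles are not stated. Even values were frequent among low deposited counts (7984 values of 2 against 2764 of 1), and nothing read here says whether mates were counted separately. Of 24062 genes, 15369 passed edgeR's filterByExpr (edgeR 4.0.16, R 4.3.3). TMM factors were 0.975 to 1.02. glmQLFit was fitted to all 9 samples with 1 mean per group, and glmQLFTest (two-sided) gave shRela-1 minus shScr and shRela-2 minus shRela-1, with Benjamini-Hochberg adjustment over all genes tested and a threshold of 0.05. The procedure was tested on simulated data. Alternatives used DESeq2 1.42.0, limma 3.58.1 (voom), other scaling, no filter, 6 samples, a replicate block and each sample left out.

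Replicate numbers come from the titles. Deviations from group means correlated at 0.294 to 0.616 in the 9 same-numbered pairs of samples and at -0.477 to 0.12 in the others, so the numbers pair the samples. The labels do not say whether replicates are separate cultures, and p-values therefore cover the spread of these samples alone, which could be technical. Replicates were checked for duplicates (chi-square over degrees of freedom 11.9 to 112, far past sampling noise), and none was merged. The pairs with shScr replicate 2 gave 112 and 109, and all others 11.9 to 34.4, so that control stood furthest from its group.

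The groups, the 27 gene lists and the naming rule were chosen with earlier results of these data known. The rule took Rela, Cdkn1a and Cxcl14, and the 12 largest rises and falls (called, mean log2 CPM at least 1, groups apart). It also took up to 3 members of each list by p, and the 5 highest and lowest genes between the hairpins. Those last had to be called, with groups apart, in both comparisons and above the same floor. Clone and model symbols were passed over. Some genes the rule names are not reported here. Other members were named after their values were seen. UTR and coding sequences came from GENCODE M21 (GRCm38), with 1 transcript per gene, and promoters from RefSeq (GRCm38.p6).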

Additional observations from a re-analysis of the deposited data

How the results depend on the processing

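Of the counts over all genes, those with the replicate block moved by over 1.5 times: 6034 genes changed with shRela-1 instead of 3799, with 3130 rising instead of 1887 and 2904 falling instead of 1912. The other settings gave 3821 (DESeq2's size factors in edgeR), 4157 (DESeq2), 3902 (limma voom), 3605 (no low-count filter), 3491 (the 6 samples alone) and 3851 (counts halved, chosen after seeing the data). Leaving out 1 sample at a time gave 2745 (without shScr replicate 3) to 3824. Between the hairpins 6134 genes became 7974 with the block and 5280 to 6152 with 1 sample left out. The log2 fold change of Rela stayed between -2.669 and -2.616. Of 84 named genes besides Rela, 76 kept their call under all alternatives run, and the exceptions were Aldh1a7, Me3, Cyld, Ccl27a and Tspan2, which lost it without single samples, and Cdkn1a, Irf9 and Zbp1, which gained it with the block. Irf9 also passed with DESeq2, with the 6 samples alone and without shRela-2 replicate 1 (adjusted p = 0.0494, 0.0254 and 0.0146), and Zbp1 in the last 2 settings (0.0431 and 0.0444). Of all 248 list members and named genes followed, 168 kept their call. Outside the block 738 of 810 list counts stayed within 1.5 times. No called direction reversed. Depth limits genes of few counts, whose fold changes carry the largest errors. With a match in any annotated isoform's 3' UTR, 1199 genes had a median of -0.151 against 0.013, an alternative chosen after seeing the data.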
